A study of Arabidopsis thaliana with 18 samples.

Results

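The 8 genes described here are those of Arabidopsis thaliana that break down abscisic acid (ABA), store it as a glucose ester or release it from that ester. They were chosen by locus, as genes of these steps of ABA metabolism, and all 8 of the 33602 loci in the tables were found. CYP707A1 (AT4G19230), CYP707A2 (AT2G29090), CYP707A3 (AT5G45340) and CYP707A4 (AT3G19270) encode the ABA 8'-hydroxylases. BGLU18 (AT1G52400) and BGLU33 (AT2G32860) encode beta-glucosidases that free ABA from its glucose ester. UGT71B6 (AT3G21780) and UGT71C5 (AT1G07240) encode glucosyltransferases that make the ester.

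ABA is the hormone through which plants answer a shortage of water, and its level in a cell is set by synthesis, breakdown, storage and transport together. The CYP707A enzymes are cytochrome P450 proteins that start the main route of breakdown, which leads to phaseic acid and on to dihydrophaseic acid. CYP707A1 and CYP707A3 are known from vegetative tissue, where CYP707A3 acts in rehydration, and CYP707A2 is known above all from seeds and their germination. ABA glucose ester is an inactive form kept in the vacuole and the endoplasmic reticulum (ER). BGLU18, also called AtBG1, lies in the ER and in ER bodies, and BGLU33, also called AtBG2, lies in the vacuole. UGT71C5 is known as a main maker of the ester in leaves.

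Poly(A) RNA was sequenced from whole seedlings in 18 libraries, 3 for each of 6 groups, and the design text calls the 3 libraries of a group separate biological experiments. The mutants were ahl10-1, a T-DNA line (Salk_073165) of the AT-hook gene AHL10, and rrp6l1-2, a T-DNA line (Salk_027601) of the exosome-related gene RRP6L1, each represented by that 1 line, and the wild type (WT) was their background Col-0. Stress seedlings of each genotype were moved at 7 days of age onto agar infused with polyethylene glycol (PEG-8000) at -0.7 MPa, a moderately low water potential, and control seedlings were kept at -0.25 MPa. All groups shared sugar-free medium and continuous light and were harvested 96 h later, at 11 days of age. The labels differ on whether control seedlings were also moved to fresh plates.

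The libraries held 57996104 to 68555138 reads counted at the loci, and 22795 genes passed the filter on low counts, among them all 8 members. AHL10 was lower in ahl10-1 than in WT by log2 -1.01 ± 0.0763 at control and -1.09 ± 0.076 at stress (± SE), and RRP6L1 was lower in rrp6l1-2 than in WT by -1.90 ± 0.161 at control and -2.48 ± 0.165 at stress. Each of these 4 differences had an adjusted p of at most 1.82e-05 in edgeR's quasi-likelihood test with Benjamini-Hochberg adjustment over all genes tested, which is the test used throughout. Of the genes called at stress against control, 52.1% were higher in ahl10-1, 50.3% in rrp6l1-2 and 48.5% in WT. Scaled by library size alone, without TMM factors, these shares were 63.0%, 68.3% and 60.3%.

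The promoter windows of 4 members are shown, the 3 that hold an ABA-responsive motif and that of BGLU18, the member with the highest level, which holds none. Each is the 300 bases before the annotated gene start in TAIR10.1, from RefSeq, read 5′ to 3′ on the strand of the gene. Capitals mark ACGTG, the core of the ABA-responsive element, searched on both strands and merged with CACGTG, the G-box, which contains it on both strands. The windows are chr4:10520959-10521258 on the plus strand for CYP707A1, chr5:18371022-18371321 on the minus strand for CYP707A3, chr3:6676522-6676821 on the minus strand for CYP707A4 and chr1:19514689-19514988 on the plus strand for BGLU18.
CYP707A1: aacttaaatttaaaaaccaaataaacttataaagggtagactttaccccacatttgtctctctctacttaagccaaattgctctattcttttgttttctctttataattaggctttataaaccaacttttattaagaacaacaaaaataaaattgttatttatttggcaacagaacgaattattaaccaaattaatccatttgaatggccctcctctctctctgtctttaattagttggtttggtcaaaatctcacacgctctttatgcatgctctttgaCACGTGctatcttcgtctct
CYP707A3: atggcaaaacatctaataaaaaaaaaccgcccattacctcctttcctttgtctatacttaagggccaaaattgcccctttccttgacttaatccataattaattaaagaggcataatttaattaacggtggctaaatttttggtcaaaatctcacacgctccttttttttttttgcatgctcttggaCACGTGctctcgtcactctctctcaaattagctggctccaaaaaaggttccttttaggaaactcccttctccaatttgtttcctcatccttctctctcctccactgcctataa
CYP707A4: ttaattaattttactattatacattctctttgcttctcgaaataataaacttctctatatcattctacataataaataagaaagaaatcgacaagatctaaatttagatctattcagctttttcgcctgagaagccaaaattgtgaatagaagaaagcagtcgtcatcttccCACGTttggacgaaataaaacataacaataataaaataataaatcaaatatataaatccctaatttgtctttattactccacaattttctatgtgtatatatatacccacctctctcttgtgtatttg
BGLU18: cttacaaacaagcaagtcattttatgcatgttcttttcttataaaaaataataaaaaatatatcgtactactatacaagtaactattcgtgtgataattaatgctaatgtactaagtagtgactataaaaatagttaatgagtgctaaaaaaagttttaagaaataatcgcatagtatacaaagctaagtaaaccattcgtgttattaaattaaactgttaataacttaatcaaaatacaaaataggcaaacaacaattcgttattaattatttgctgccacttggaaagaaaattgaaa

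CYP707A1 held CACGTG at 20 to 15 bases before its start and CYP707A3 held it at 113 to 108 bases. CYP707A4 held ACGTG without the full G-box, read on the opposite strand as CACGT, at 128 to 124 bases. The windows of CYP707A2, BGLU18, BGLU33, UGT71B6 and UGT71C5 held neither, and no member held CCGAC, the core of the dehydration-responsive element. Over the same window of 27443 nuclear protein-coding genes, 25.6% held ACGTG, 7.09% held CACGTG and 13.9% held CCGAC. A match describes the letters of the window and does not show that a factor binds there.

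CYP707A1 and CYP707A3 shared more than the G-box. Their longest common run, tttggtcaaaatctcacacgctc, was 23 bases long and lay 61 to 39 bases before the start of CYP707A1 and 162 to 140 bases before that of CYP707A3. A run of 11 bases, tgcatgctctt, and a run of 10 bases that contains the G-box followed it in the same order in both. In the other 27 pairs of member promoters the longest common run was 7 to 11 bases. These 2 genes with related promoters took opposite signs at stress in all 3 genotypes, as described next, but the fall of CYP707A3 was called in WT alone.

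CYP707A1 rose at stress in each genotype, and the CYP707A1 levels of the stress and control groups did not overlap. It had 6.33, 5.59 and 3.38 RPKM (the deposited read count scaled by gene length and library total) in ahl10-1 stress libraries, against 2.46, 2.39 and 1.84 RPKM in ahl10-1 control libraries. In rrp6l1-2 it had 4.83, 3.82 and 3.14 RPKM at stress and 2.01, 2.70 and 2.43 RPKM at control. In WT it had 5.82, 4.90 and 4.32 RPKM at stress and 2.50, 2.62 and 2.62 RPKM at control. The lowest of the 9 stress libraries thus lay above the highest of the 9 control libraries. The log2 difference of stress over control was 1.12 ± 0.184 in ahl10-1 (adjusted p = 0.000276), 0.62 ± 0.184 in rrp6l1-2 (adjusted p = 0.0189) and 0.89 ± 0.183 in WT (adjusted p = 0.0019). The rrp6l1-2 call was lost without stress replicate 1 of rrp6l1-2, where the difference was 0.46 (adjusted p = 0.0981), and without its control replicate 1, where it was 0.51 (adjusted p = 0.0793). In RNA of whole seedlings, a change in the number of cells that use a gene cannot be told apart from a change in RNA per cell, here and for the members below.

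CYP707A3 went the other way, and its control libraries differed far more among themselves than those of any other member. It had 1.50, 1.54 and 1.43 RPKM in ahl10-1 stress libraries, against 3.83, 1.56 and 4.58 RPKM in ahl10-1 control libraries. It had 1.95, 1.1 and 1.88 RPKM in rrp6l1-2 stress libraries, against 7.49, 2.12 and 13.4 RPKM in rrp6l1-2 control libraries. It had 1.65, 1.72 and 1.63 RPKM in WT stress libraries, against 34.3, 2.38 and 7.26 RPKM in WT control libraries. All 9 stress libraries were low and close together, and in each genotype control replicate 2 was the lowest control library and came near the stress level. The spread within groups, an SD of 1.06 in log2 CPM (counts scaled to library size), was above that of 99.3% of the genes tested.

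The difference of stress over control in CYP707A3 was log2 -3.22 ± 0.868 in WT (adjusted p = 0.0151), -2.35 ± 0.849 in rrp6l1-2 (adjusted p = 0.0527) and -1.24 ± 0.845 in ahl10-1 (adjusted p = 0.299). CYP707A3 therefore fell in WT and was not called in either mutant, but neither mutant's response was shown to differ from that of WT, with differences of 1.98 ± 1.18 for ahl10-1 and 0.87 ± 1.16 for rrp6l1-2 (unadjusted p = 0.116 and 0.467). Without WT control replicate 1, the library at 34.3 RPKM, the WT difference was -1.57 (adjusted p = 0.111), and without WT stress replicate 1 it was -3.20 (adjusted p = 0.055). With the replicate number as a block over all 18 libraries, the rrp6l1-2 difference was -2.20 (adjusted p = 0.0396). The check of pairing found same-numbered libraries alike at stress and control in rrp6l1-2 but not in WT, so the block is only partly backed by it. In the authors' deposited table of stress against control in WT, the log2 value of CYP707A3 was -0.94 (adjusted p = 0.0191). That is nearer to no change than the value here. The deposited values of the other members in WT were nearer too, with BGLU18 at 2.23 against 2.94 here. The reason was not tested.

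CYP707A4 had the lowest levels of the family at control and rose at stress in ahl10-1 and WT. It had 1.50, 1.63 and 1.25 RPKM in ahl10-1 stress libraries, against 0.987, 0.650 and 0.638 RPKM in ahl10-1 control libraries. It had 1.47, 1.25 and 1.22 RPKM in rrp6l1-2 stress libraries, against 1.04, 0.704 and 0.819 RPKM in rrp6l1-2 control libraries. In WT it had 1.70, 1.82 and 1.75 RPKM at stress and 0.726, 0.987 and 0.632 RPKM at control. Every stress library lay above every control library, and the smallest gap was in rrp6l1-2. The log2 difference was 0.88 ± 0.203 in ahl10-1 (adjusted p = 0.00395) and 1.1 ± 0.203 in WT (adjusted p = 0.000838), and in rrp6l1-2 it was 0.51 ± 0.202 with an adjusted p of 0.0674. The rrp6l1-2 value passed the threshold in DESeq2 (0.50, adjusted p = 0.0452).

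CYP707A2 was called in no genotype. It had 1.74, 1.98 and 1.79 RPKM in ahl10-1 stress libraries, against 1.58, 2.68 and 2.04 RPKM in ahl10-1 control libraries. It had 1.53, 2.08 and 1.08 RPKM in rrp6l1-2 stress libraries, against 2.05, 2.14 and 2.13 RPKM in rrp6l1-2 control libraries. It had 1.85, 3.42 and 1.53 RPKM in WT stress libraries, against 2.11, 2.40 and 2.19 RPKM in WT control libraries. Stress and control overlapped in all 3 genotypes, and the highest and lowest levels of CYP707A2 were both in stress libraries. The 95% interval of the log2 difference ran from -0.85 to 0.31 in ahl10-1, from -1.12 to 0.04 in rrp6l1-2 and from -0.62 to 0.53 in WT.

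**Figure D1:**
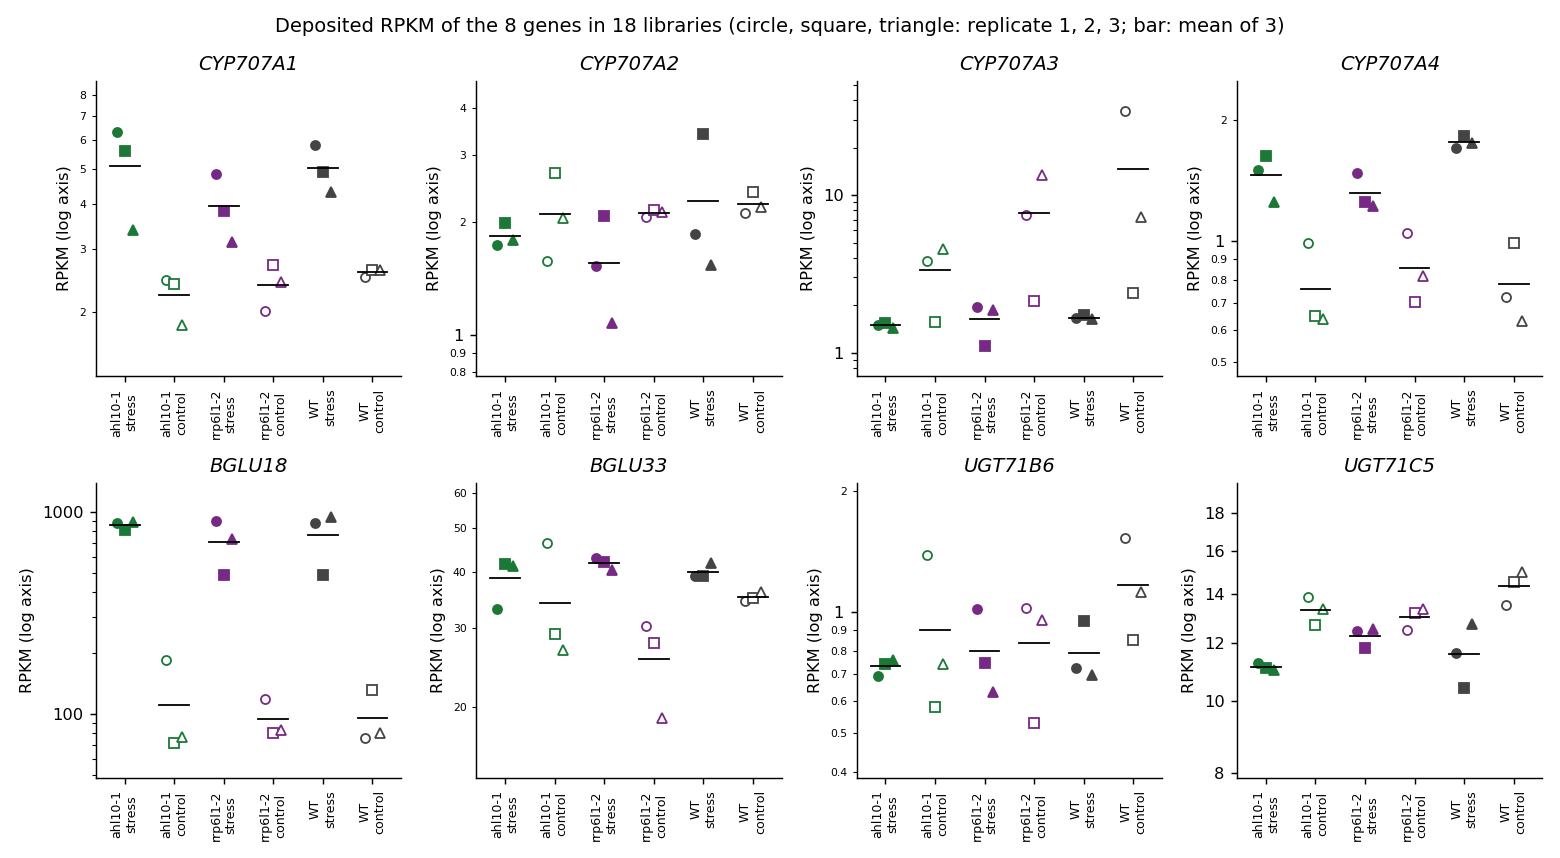
Deposited RPKM of each of the 8 genes (vertical log axis) in every library, with stress left of control within ahl10-1, rrp6l1-2 and WT, and a bar at the mean of 3 libraries. BGLU18 and CYP707A1 are higher in all stress libraries, while the control libraries of CYP707A3 spread between 1.56 and 34.3 RPKM.

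Summed over the 4 genes, the hydroxylase family was led by CYP707A1 in every stress library. The summed level was 9.88 ± 1.78 RPKM in ahl10-1 stress libraries and 8.41 ± 0.985 RPKM in ahl10-1 control libraries (SD, n = 3 each). It was 8.44 ± 1.25 RPKM in rrp6l1-2 stress libraries and 13.0 ± 5.55 RPKM in rrp6l1-2 control libraries. In WT it was 10.7 ± 1.35 RPKM at stress and 20.3 ± 17.0 RPKM at control, and WT control replicate 1 alone reached 39.7 RPKM. CYP707A1 made up 41.3% to 57.2% of the sum in the stress libraries, more than any other member of the family in each of them. At control CYP707A1 held 6.29% to 35.2%, while CYP707A3 held 21.4% to 86.6%. These sums and shares are a description with no test.

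**Figure D2:**
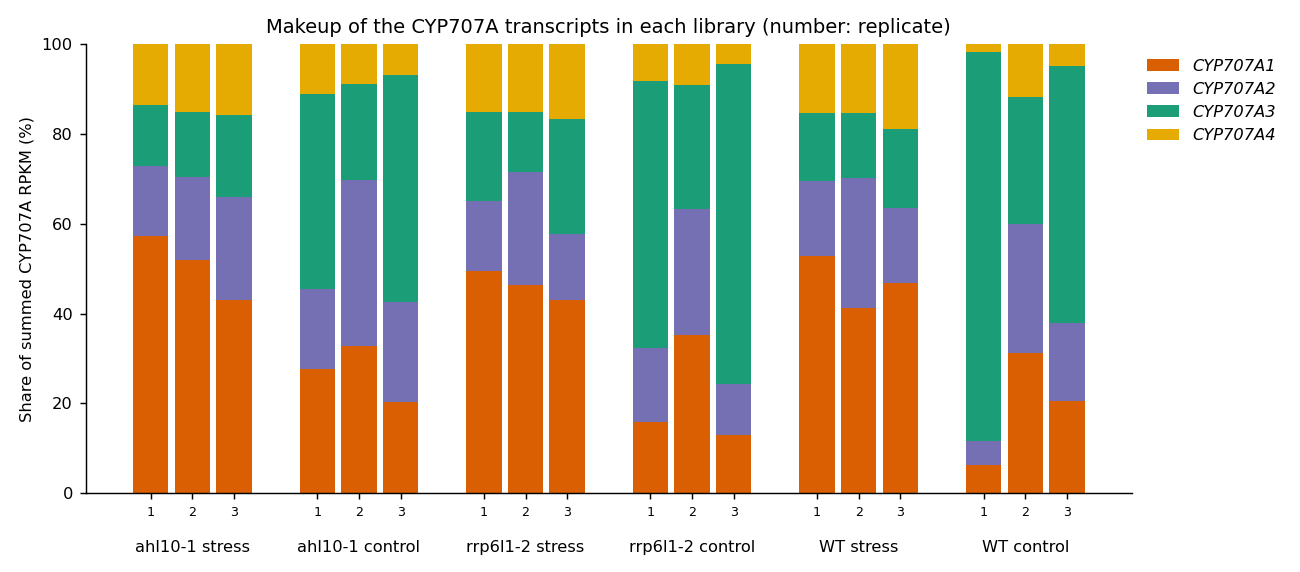
Share of each CYP707A gene in the summed RPKM of the family (vertical axis, percent) in the 18 libraries, stress left of control in each genotype. CYP707A1 is the leading gene in all stress libraries, and the share of CYP707A3 varies between 21.4% and 86.6% in control libraries.

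BGLU18 showed the largest rise among the members, of similar size in the 3 genotypes. It had 880, 810 and 884 RPKM in ahl10-1 stress libraries, against 185, 71.6 and 76.8 RPKM in ahl10-1 control libraries. In rrp6l1-2 it had 903, 484 and 736 RPKM at stress and 119, 80.3 and 82.8 RPKM at control. In WT it had 883, 485 and 940 RPKM at stress and 75.7, 131 and 80.6 RPKM at control. The stress and control groups stood far apart in every genotype, although replicate 2 at stress was the lowest of its group in each. The log2 difference was 2.91 ± 0.373 in ahl10-1 (adjusted p = 4.36e-05), 2.81 ± 0.371 in rrp6l1-2 (adjusted p = 6.77e-05) and 2.94 ± 0.373 in WT (adjusted p = 4.72e-05), a rise of 7.49-fold, 6.99-fold and 7.66-fold.

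At stress BGLU18 ranked between 54 and 135 among the 33602 loci by RPKM, and at control between 511 and 1543. It took 0.113% to 0.222% of the reads counted at these loci in a library at stress and 0.0167% to 0.0434% at control. Its window printed above held no ACGTG and was 24.3% G and C, against 31.3% for CYP707A1. The next gene, TSA1, begins 2191 bases beyond BGLU18 and encodes a protein of ER bodies. TSA1 rose as well, by log2 1.59 ± 0.239 in ahl10-1 (adjusted p = 0.000173), 1.47 ± 0.238 in rrp6l1-2 (adjusted p = 0.000382) and 1.55 ± 0.239 in WT (adjusted p = 0.000256).

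BGLU33, the vacuolar enzyme, was called in rrp6l1-2 alone. It had 33.1, 41.6 and 41.3 RPKM in ahl10-1 stress libraries, against 46.4, 29.1 and 26.7 RPKM in ahl10-1 control libraries. It had 43.0, 42.1 and 40.3 RPKM in rrp6l1-2 stress libraries, against 30.3, 27.7 and 19.0 RPKM in rrp6l1-2 control libraries. In WT it had 39.0, 39.1 and 41.9 RPKM at stress and 34.4, 34.9 and 36.0 RPKM at control. The groups were apart in rrp6l1-2 and, by a small margin, in WT, and they overlapped in ahl10-1. The log2 difference was 0.13 ± 0.162 in ahl10-1 (adjusted p = 0.588), 0.61 ± 0.163 in rrp6l1-2 (adjusted p = 0.0112) and 0.12 ± 0.162 in WT (adjusted p = 0.624). Without rrp6l1-2 control replicate 3, the library at 19.0 RPKM, the rrp6l1-2 difference was 0.45 (adjusted p = 0.0556). The stress responses of rrp6l1-2 and WT differed by 0.49 ± 0.23 in the test of that difference (unadjusted p = 0.0508, adjusted p = 1), so BGLU33 was not shown to respond differently.

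UGT71C5 varied least of the 8 members, by 1.43-fold between its highest and lowest library, and fell slightly at stress in ahl10-1 and WT. It had 11.3, 11.1 and 11 RPKM in ahl10-1 stress libraries, against 13.8, 12.7 and 13.3 RPKM in ahl10-1 control libraries. It had 12.4, 11.8 and 12.5 RPKM in rrp6l1-2 stress libraries, against 12.5, 13.2 and 13.3 RPKM in rrp6l1-2 control libraries. In WT it had 11.6, 10.4 and 12.7 RPKM at stress and 13.5, 14.5 and 15.0 RPKM at control. The groups were apart in ahl10-1 and WT and overlapped in rrp6l1-2. The log2 difference was -0.33 ± 0.0752 in ahl10-1 (adjusted p = 0.0038), -0.19 ± 0.0751 in rrp6l1-2 (adjusted p = 0.0669) and -0.37 ± 0.0751 in WT (adjusted p = 0.00176). With the replicate block the rrp6l1-2 value was -0.19 with an adjusted p of 0.0198, and with plain library sizes it was -0.08 (adjusted p = 0.419).

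UGT71B6 had the lowest median level at stress, while at control that of CYP707A4 was lower, and UGT71B6 was called in no genotype. It had 0.694, 0.743 and 0.761 RPKM in ahl10-1 stress libraries, against 1.39, 0.580 and 0.741 RPKM in ahl10-1 control libraries. It had 1.02, 0.747 and 0.631 RPKM in rrp6l1-2 stress libraries, against 1.02, 0.530 and 0.956 RPKM in rrp6l1-2 control libraries. It had 0.726, 0.952 and 0.695 RPKM in WT stress libraries, against 1.53, 0.849 and 1.12 RPKM in WT control libraries. The groups overlapped in all 3 genotypes, and the 95% interval of the log2 difference was widest in the direction of a fall in WT, from -1.31 to 0.05. These levels rest on 54 to 164 reads a library. The TAIR10.1 annotation places the antisense long noncoding gene AT3G21781 over the same interval. In the deposited data AT3G21781 is 0.331 kb long, against 1.491 kb for UGT71B6, and it had 8 to 70 reads a library. Without the strand setting of the counting, the reads of the pair cannot be told apart where they overlap.

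**Figure D3:**
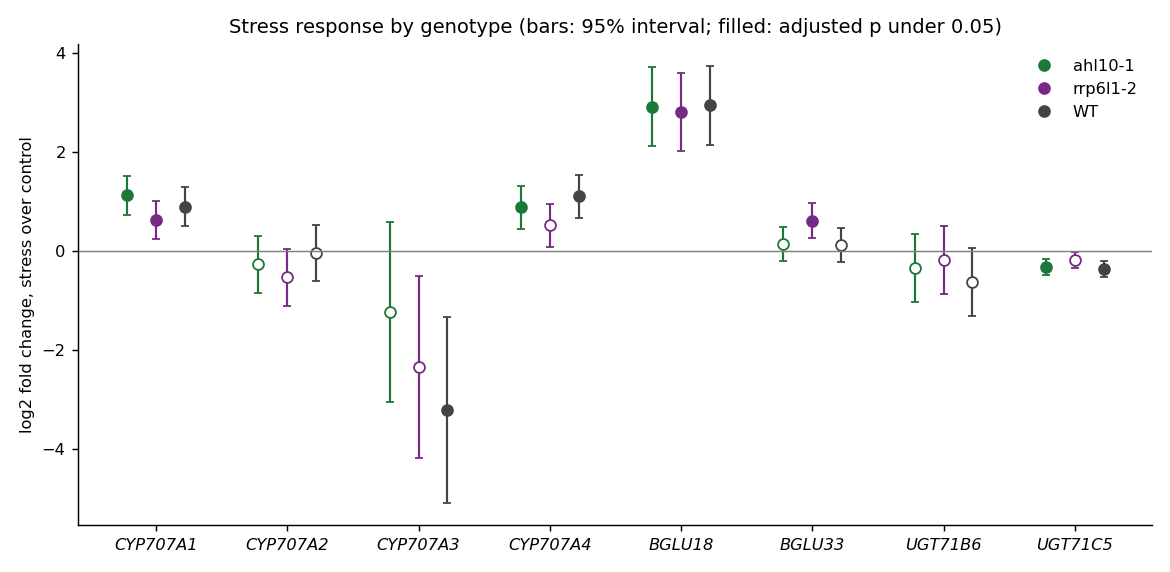
Log2 difference of stress over control (vertical axis) for each of the 8 genes in ahl10-1, rrp6l1-2 and WT, with 95% intervals and filled points where the adjusted p passed 0.05. BGLU18 lies between 2.81 and 2.94 in the 3 genotypes, and the interval of CYP707A3 is the widest.

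Counted together, 4 of the 8 members were called at stress against control in ahl10-1, 3 higher and 1 lower, where 30.1% of all genes tested were called, 15.7% higher and 14.4% lower. In rrp6l1-2, 3 members were called, all higher, where 29.5% of all genes were called, 14.9% higher and 14.7% lower. In WT, 5 members were called, 3 higher and 2 lower, where 26.1% of all genes were called, 12.6% higher and 13.4% lower. The replicate block gave 5 members in rrp6l1-2, 3 higher and 2 lower, and DESeq2 gave 6, 4 higher and 2 lower. These settings called 7614 and 7530 of all genes, against 6733 in the main fit. The RPKM of stress and control libraries did not overlap for 5 members in ahl10-1, 5 in rrp6l1-2 and 6 in WT, against 37.3%, 48% and 44.6% of all genes tested. The median log2 difference of the members was -0.07 in ahl10-1, 0.17 in rrp6l1-2 and 0.04 in WT, against 0.01, 0.02 and 0.00 over all genes.

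Among the marker genes of cell types and organs, 2 of the 3 guard cell markers fell at stress in each genotype. The summed level of 3 guard cell markers was 17.0 to 22.2 RPKM in stress libraries and 25.7 to 31.5 RPKM in control libraries, and KAT1 and MYB60 of these were lower at stress in all 3 genotypes. The summed level of 7 root markers was 61.3 to 83.8 RPKM at stress and 42.9 to 76.7 RPKM at control, and 4 leaf markers summed to 10823 to 15438 RPKM at stress and 12283 to 19371 RPKM at control. Of the 7 root markers, 1 rose and 1 fell in ahl10-1, 0 were called in rrp6l1-2 and 1 rose in WT, and of the 4 leaf markers 1 fell in rrp6l1-2 and 0 were called in ahl10-1 and WT. The 3 seed markers summed to 0.161 to 2.85 RPKM at stress and 0.0483 to 13.6 RPKM at control, and 0 of the 2 tested were called in any genotype. The part of cell composition in the members' differences was not tested, as the labels name whole seedlings only.

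None of the 8 members was called between a mutant and WT. In ahl10-1 against WT, 0 of 8 were called at control, where 0.0263% of all genes were called, and 0 of 8 at stress, where 0.0351% were called. In rrp6l1-2 against WT, 0 of 8 were called at control, where 0.211% of all genes were called, and 0 of 8 at stress, where 0.0834% were called. At an unadjusted p under 0.05 edgeR gave 1 member in ahl10-1 and 1 in rrp6l1-2 at control and 0 in either at stress, and DESeq2 and limma also called 0 members. The tests of the difference between a mutant's and WT's stress response called 0 members for ahl10-1 and 0 for rrp6l1-2, with 0 at an unadjusted p under 0.05 and 0% of all genes called.

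The member at an unadjusted p under 0.05 in ahl10-1 was CYP707A3, at log2 -2.09 ± 0.82 against WT at control (unadjusted p = 0.0243, adjusted p = 0.793). Without WT control replicate 1 that value was -0.43. For rrp6l1-2 against WT at control CYP707A3 was at -0.84 ± 0.785, and without WT control replicate 1 it was at 0.82, the opposite sign. The member in rrp6l1-2 was BGLU33, at log2 -0.37 ± 0.163 against WT at control (unadjusted p = 0.0389, adjusted p = 0.259). Its 3 rrp6l1-2 control libraries, at 19.0 to 30.3 RPKM, lay below the 3 WT control libraries, at 34.4 to 36.0 RPKM.

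How small the mutant differences must be varies by gene. For UGT71C5 at stress the 95% interval ran from -0.16 to 0.16 in ahl10-1 and from -0.02 to 0.29 in rrp6l1-2 against WT. For CYP707A1 at stress it ran from -0.31 to 0.45 in ahl10-1 and from -0.68 to 0.09 in rrp6l1-2. For BGLU18 at stress it ran from -0.52 to 0.96 in ahl10-1 and from -0.81 to 0.67 in rrp6l1-2. The widest was that of CYP707A3, from -1.96 to 1.75 in ahl10-1 at stress, in the fit that shares 1 estimate of the spread over stress and control libraries. In the fit of the compared groups alone, where the control libraries do not enter, CYP707A3 at stress was at log2 -0.12 ± 0.13 in ahl10-1 (adjusted p = 0.915) and 0.03 ± 0.201 in rrp6l1-2 (adjusted p = 0.99) against WT. The 4 comparisons share the WT libraries of each treatment and are not independent of each other.

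CYP707A4 had the rrp6l1-2 stress response that stood farthest below that of WT, by log2 -0.59 ± 0.285 (unadjusted p = 0.0565, adjusted p = 1). At stress its 3 rrp6l1-2 libraries, at 1.22 to 1.47 RPKM, lay below the 3 WT libraries, at 1.70 to 1.82 RPKM, with a log2 difference of -0.37 ± 0.198 (adjusted p = 1). The 3 ahl10-1 stress libraries of CYP707A4, at 1.25 to 1.63 RPKM, lay below the same WT libraries too. Their log2 difference was -0.21 ± 0.197 (adjusted p = 0.996). The RPKM of mutant and WT libraries did not overlap for 1 member in ahl10-1 and 2 in rrp6l1-2 at control, against 7.27% and 25.9% of all genes, and for 2 in ahl10-1 and 1 in rrp6l1-2 at stress, against 12.9% and 16.3%.

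**Figure D4:**
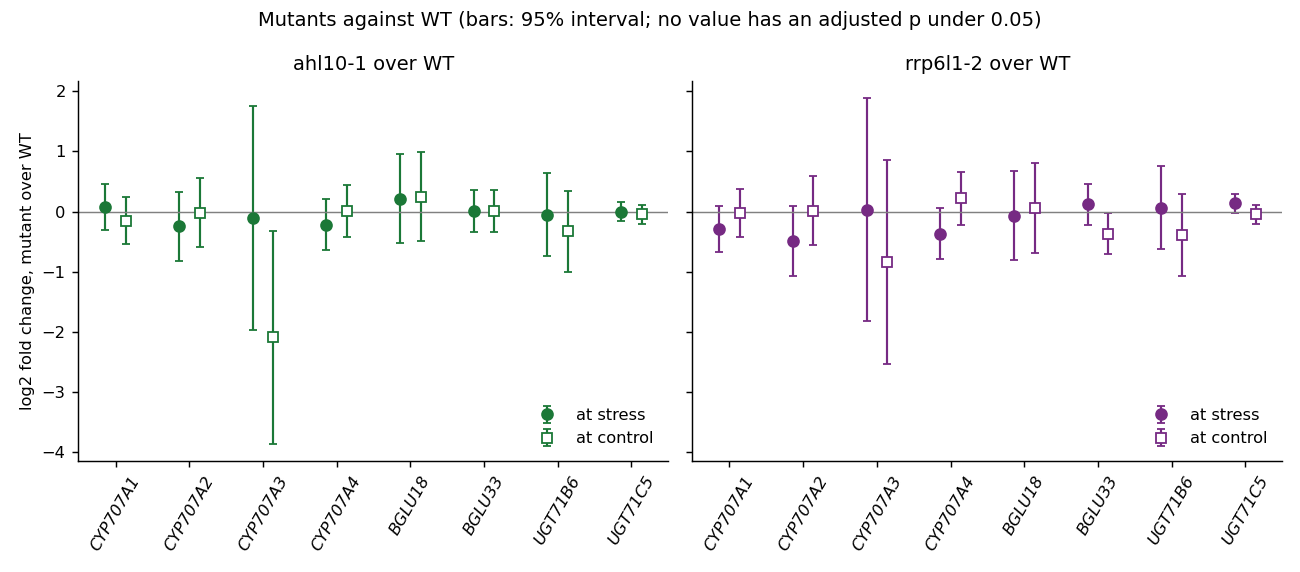
Log2 difference of ahl10-1 (left) and rrp6l1-2 (right) over WT (vertical axis) for each of the 8 genes, at stress and at control, with 95% intervals. No adjusted p passes 0.05, and the intervals of CYP707A3 are the widest.

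By level, the 8 members fell into a steep order. At stress the medians over 9 libraries were 880 RPKM for BGLU18, 41.3 for BGLU33, 11.6 for UGT71C5 and 4.83 for CYP707A1, followed by 1.79 for CYP707A2, 1.63 for CYP707A3, 1.50 for CYP707A4 and 0.743 for UGT71B6. The levels of CYP707A2, CYP707A3 and CYP707A4 overlapped over the stress libraries, and that of CYP707A1 overlapped with CYP707A2 by 1 library of CYP707A2 at 3.42 RPKM. At control the medians were 80.6 RPKM for BGLU18, 30.3 for BGLU33, 13.3 for UGT71C5 and 4.58 for CYP707A3, followed by 2.46 for CYP707A1, 2.13 for CYP707A2, 0.956 for UGT71B6 and 0.726 for CYP707A4. There the range of CYP707A3 took in that of CYP707A1, CYP707A2, UGT71C5 and part of BGLU33. Of the paired enzymes, BGLU18 held 92.0% or more of the summed glucosidase level at stress and 68.7% to 81.4% at control, and UGT71C5 held 89.8% to 96.1% of the summed glucosyltransferase level in all libraries.

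The genes around these 8 in ABA metabolism moved in part. Over all genes tested, 15.7% rose and 14.4% fell at stress in ahl10-1. These shares were 14.9% and 14.7% in rrp6l1-2 and 12.6% and 13.4% in WT, and the counts of each list stand beside them. Of 10 genes of ABA synthesis, 9 were tested, and NCED6, the other one, had 0 reads in all libraries. In ahl10-1, 5 of 9 rose at stress, among them AAO3, which makes ABA from its aldehyde (log2 0.31 ± 0.0627, adjusted p = 0.00147), and NCED3, the dioxygenase of the rate-limiting step (1.99 ± 0.423, adjusted p = 0.00265). In rrp6l1-2 and in WT, 2 of 9 rose, AAO3 and ABA3. The NCED3 differences were 0.98 ± 0.409 in rrp6l1-2 (adjusted p = 0.0839) and 0.95 ± 0.405 in WT (adjusted p = 0.0989). None fell. The tests of a mutant's stress response against that of WT called 0 of the 9, so ahl10-1 was not shown to respond differently. NCED3 had 0.642 to 0.955 RPKM in ahl10-1 control libraries and 0.779 to 2.59 RPKM in WT control libraries. At stress it had 2.43 to 4.45 RPKM in ahl10-1 and 1.96 to 4.61 RPKM in WT. ABH2, a reductase that turns phaseic acid into dihydrophaseic acid, was not called in any genotype, at log2 0.26 in ahl10-1, 0.63 in rrp6l1-2 and -0.09 in WT.

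Of 10 other glucosyltransferases that can act on ABA or are close relatives, 8 were tested. Of these, 4 rose at stress in ahl10-1, 2 in rrp6l1-2 and 2 in WT. The tests of a mutant's stress response against that of WT called 0 of the 8. UGT75B1 rose in all 3, by log2 0.99 ± 0.165 in ahl10-1 (adjusted p = 0.000364), 0.71 ± 0.165 in rrp6l1-2 (adjusted p = 0.00462) and 0.97 ± 0.166 in WT (adjusted p = 0.000528). UGT71C4 begins 234 bases beyond UGT71C5 and took the opposite sign to it, rising by 0.38 ± 0.0712 in ahl10-1 (adjusted p = 0.00084), 0.33 ± 0.0712 in rrp6l1-2 (adjusted p = 0.00288) and 0.36 ± 0.0712 in WT (adjusted p = 0.0016). UGT71B7, 298 bases from UGT71B6, rose in ahl10-1 by 0.40 ± 0.11 (adjusted p = 0.0125) and was at 0.26 in rrp6l1-2 and 0.24 in WT (adjusted p = 0.0833 and 0.125). UGT71B7 had 20.7 to 26.9 RPKM in rrp6l1-2 stress libraries, far above its neighbour UGT71B6.

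Of 7 other glucosidase and ER body genes, 2 rose at stress in each genotype, TSA1 and BGLU10, and none fell. That is close to the share of all genes called in either direction, 30.1% in ahl10-1, 29.5% in rrp6l1-2 and 26.1% in WT. BGLU10 rose by log2 0.74 ± 0.082 in ahl10-1 (adjusted p = 6.59e-06), 0.63 ± 0.0819 in rrp6l1-2 (adjusted p = 3.72e-05) and 0.61 ± 0.082 in WT (adjusted p = 4.83e-05). PYK10, the abundant beta-glucosidase of root ER bodies, was not called, at 0.03 in ahl10-1, -0.30 in rrp6l1-2 and -0.24 in WT. NAI1 and NAI2, which ER bodies need to form, were not called either, with NAI1 at -0.02, -0.31 and -0.19 in ahl10-1, rrp6l1-2 and WT.

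Of 8 ABA transporters, 2 rose and 2 fell in ahl10-1, 1 rose and 3 fell in rrp6l1-2, and 2 rose and 3 fell in WT. ABCC1, which carries ABA glucose ester into the vacuole, rose by log2 0.39 ± 0.0876 in ahl10-1 (adjusted p = 0.00299), 0.27 ± 0.0876 in rrp6l1-2 (adjusted p = 0.03) and 0.34 ± 0.0876 in WT (adjusted p = 0.00987). The importer NPF4.6 and the exporter ABCG31 fell in all 3 genotypes, and the exporter DTX50 fell by -2.72 ± 0.7 in rrp6l1-2 (adjusted p = 0.00975) and -2.78 ± 0.679 in WT (adjusted p = 0.00762). DTX50 was not called lower in ahl10-1, but the tests of a mutant's stress response against that of WT called 0 of the 8 transporters. All 10 ABA response genes rose in each genotype, with a median log2 difference of 2.71 in ahl10-1, 2.08 in rrp6l1-2 and 2.46 in WT. No gene of these lists was called between a mutant and WT, where the smallest adjusted p was 0.12, in rrp6l1-2 at control.

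The genes with the nearest pattern differed from member to member. Nearness was the root mean square difference (RMSD) of log2 CPM over the 18 libraries, with each gene centred on its own mean, and the 22794 other genes tested were searched. Since libraries, depth and treatment are shared, the values describe likeness of pattern only. For CYP707A3 the nearest were SZF1, a CCCH zinc finger gene, at an RMSD of 0.224, ACS6, which encodes an enzyme of ethylene synthesis, at 0.293, and AT3G04640 at 0.322. SZF1 had 32.5, 11 and 28.7 RPKM in ahl10-1 control libraries, 48.4, 10.9 and 69.9 RPKM in rrp6l1-2 control libraries and 154, 14.8 and 46.8 RPKM in WT control libraries. It was thus highest in WT control replicate 1 and lowest in control replicate 2 of each genotype, as CYP707A3 was. At stress SZF1 had 7.13 to 14.8 RPKM in the 9 libraries.

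For BGLU18 the nearest was AT1G52000, at an RMSD of 0.179, followed by CSLA10, a cellulose synthase-like gene, at 0.284 and MBP2, a myrosinase-binding protein gene, at 0.287. AT1G52000 had 168, 155 and 177 RPKM in ahl10-1 stress libraries, against 32.9, 15.3 and 17.0 RPKM in ahl10-1 control libraries. In rrp6l1-2 it had 163, 110 and 139 RPKM at stress and 20.5, 12.9 and 14.5 RPKM at control. In WT it had 163, 111 and 140 RPKM at stress and 17.5, 22.2 and 16.9 RPKM at control. Like BGLU18 it was lowest in stress replicate 2 of each genotype, and its highest control libraries were replicate 1 of both mutants and replicate 2 of WT.

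The other members had these neighbours. CYP707A1 lay nearest to AT5G17460 at 0.18, AT3G27200 at 0.18 and SIP1 at 0.183. CYP707A4 lay nearest to AT3G22550 at 0.193, PGSIP1 at 0.196 and CESA4, a cellulose synthase of secondary walls, at 0.207. CYP707A2 had no close neighbour, with AT2G45120 at 0.249, AT3G60200 at 0.25 and AT3G04960 at 0.255, where its own spread around its mean was 0.359. BGLU33 lay nearest to PDF1, an epidermal gene, at 0.0778, DRB5 at 0.1 and AGO10 at 0.119. UGT71B6 lay nearest to LNG2 at 0.193, PIL6 at 0.194 and AT1G69840 at 0.203, and UGT71C5 to AT4G27640 at 0.063, AT1G09620 at 0.0668 and ATNTT2 at 0.0673.

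**Figure D5:**
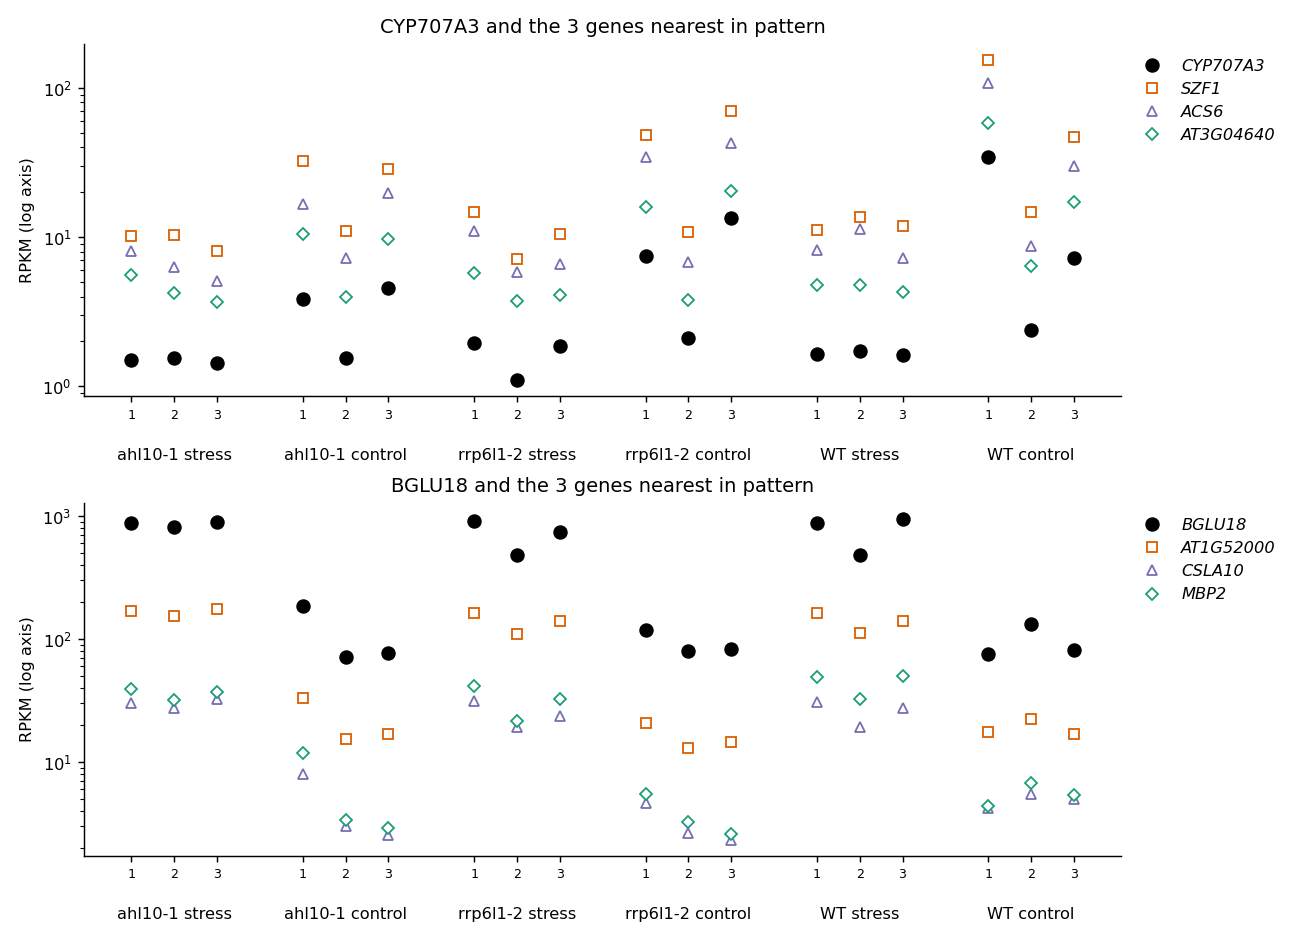
RPKM (vertical log axis) of CYP707A3 (top) and BGLU18 (bottom) with the 3 genes nearest to each in pattern, in the 18 libraries with stress left of control in each genotype. SZF1 follows CYP707A3 up to 154 RPKM in WT control replicate 1, and AT1G52000 stays between 110 and 177 RPKM at stress.

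In TAIR10.1 the 8 members lie on chromosomes 1 to 5, with none next to another member. CYP707A1 spans chr4:10521259-10523961 on the plus strand and CYP707A2 spans chr2:12494826-12499723 on the minus strand. CYP707A3 spans chr5:18368532-18371021 on the minus strand and CYP707A4 spans chr3:6673689-6676521 on the minus strand. BGLU18 spans chr1:19514989-19518411 on the plus strand and BGLU33 spans chr2:13940187-13943883 on the plus strand. UGT71B6 spans chr3:7674904-7676519 on the minus strand and UGT71C5 spans chr1:2223625-2225524 on the plus strand. The annotation gives UGT71B6 and UGT71C5 a single exon each. It gives CYP707A1 7 exons, CYP707A2 5 to 9, CYP707A3 5 to 6 and CYP707A4 8 to 9 exons, depending on the transcript, and BGLU18 and BGLU33 12 to 13. No read of a member was counted as mapping to several places, so close relatives did not share reads in these tables.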

How the data were processed

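Whole-seedling poly(A) RNA of 18 libraries was analysed, 3 for each of 6 groups named by the labels. The authors deposited, per the file headers, 1 table per library with the expected counts of 33602 loci, the RPKM, the fraction of multi-mapped reads and the gene length. All counts of the 8 members were whole, while 3.92% to 4.56% of the counts in a library were fractional. TAIR10, Bowtie2, DESeq2, CASAVA and bcl2fastq 1.8.4 appear, with no role, in the submitters' processing notes. Which tool counted the reads, and whether it used the strand, is not given in the sources used here. A further 5 tables deposited by the authors hold comparisons, with log2 fold changes, standard errors, p-values and adjusted p-values per the file headers. Only CYP707A3 and BGLU18 in WT are quoted from them.

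The deposited counts were rounded and tested in R 4.3.3 with edgeR 4.0.16 (glmQLFit with robust estimation, glmQLFTest, TMM factors of 0.901 to 1.07, filterByExpr by group) in 1 fit of 18 libraries with 6 group means, 12 residual degrees of freedom and a biological coefficient of variation of 14.4%. P-values were adjusted by Benjamini-Hochberg over 22795 genes and called under 0.05. Standard errors and 95% intervals come from that fit. A count of 0 allows up to 3 reads, and this covers counting error only. Reads of the 18 pairs of replicates differed by a chi-square of 14.4 to 97.3 per gene, so each library counted once. On simulated counts for stress against control in WT, with 200 of the genes changed, the fit recovered 76% of the 2-fold and 87% of the 4-fold changes. In the data 5941 genes were called there, so these shares do not give the power of the real tests.

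Same-numbered libraries deviated together in stress against control of ahl10-1 (correlations of 0.251 to 0.402) and of rrp6l1-2 (0.154 to 0.51). They also did so in rrp6l1-2 against WT at control (0.158 to 0.478). Every correlation there was over 0.1 across 14716 genes, so the replicate block was read as a pairing in these comparisons. In stress against control of WT the correlations were -0.0656 to 0.041. The block was a shared replicate effect fitted to all 18 libraries, so it assumes a pairing for WT as well. Alternatives used limma 3.58.1 on log2(RPKM + 0.5) and log2(RPKM + 0.1), DESeq2 1.42.0, other scalings, no filter, unique reads, the compared groups alone, the replicate block and each library left out.

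The members, and the gene lists beside them, were chosen with earlier results of these data known. Named were the 8 members, up to 3 genes of each list with the smallest adjusted p, list genes next to a member, and the 3 genes nearest each member in pattern; NCED3, PYK10, NAI1, NAI2, NCED6, ABA3, DTX50 in WT, KAT1 and MYB60 were named for their role or as counted calls after their values were seen. The files carry no coordinates; those printed, and the promoter windows, are from the RefSeq annotation and sequence of TAIR10.1, which matched 32835 of the 33602 loci by locus tag.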

Additional observations from a re-analysis of the deposited data

How the results depend on the processing

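The members called at stress against control numbered 4 to 5 in ahl10-1, 3 to 6 in rrp6l1-2 and 4 to 5 in WT over 9 alternatives that kept all libraries. Over all genes, the same alternatives called 4998 to 7616 in ahl10-1, 5992 to 7614 in rrp6l1-2 and 5383 to 6852 in WT. In rrp6l1-2 the main count was 3, DESeq2 gave 6 and the replicate block gave 5, where 6733, 7530 and 7614 of all genes were called. Leaving out 1 library gave 4 in each case in ahl10-1, 2 to 4 in rrp6l1-2 and 4 to 5 in WT. Over all genes it gave 5122 to 6764, 4819 to 5983 and 4239 to 5890. The count of members was 0 under every alternative run for the 4 comparisons of mutant with WT and for both differences in stress response. Of 1176 single values recomputed, 1158 kept their side of the threshold, 6 lost it, 12 passed it and 0 called values changed sign. Among uncalled values 96 changed sign, 34 of them with all libraries, at -0.09 to 0.13. The other 62, with 1 library left out, were at -0.79 to 0.82. CYP707A3 passed in ahl10-1 in the fit of the compared groups alone (-1.25, adjusted p = 0.0481), while its WT call was lost there (-3.22, adjusted p = 0.118). CYP707A4 in rrp6l1-2 passed with plain library sizes (0.62, adjusted p = 0.0372), both limma fits, DESeq2 and without rrp6l1-2 control replicate 1; CYP707A3 in rrp6l1-2 passed in DESeq2, with unique reads and without rrp6l1-2 control replicate 2, and UGT71C5 in DESeq2. The replicate block changed no other call of a member. Plain library sizes moved the median of all genes at stress against control most in rrp6l1-2, from 0.02 to 0.13.

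Counts over all genes between a mutant and WT varied with the setting. For rrp6l1-2 against WT at control, 48 genes were called, against 820 in DESeq2, 148 with the replicate block, 24 in the compared groups alone and 16 to 71 with 1 library left out. For ahl10-1 against WT at control, 6 were called, against 22 in DESeq2 and 26 without ahl10-1 control replicate 1. At stress, 8 were called for ahl10-1, against 27 in DESeq2 and 5 in the compared groups alone, and 19 for rrp6l1-2, against 55 and 40. The differences in stress response gave 0 genes for each mutant, against 3 for ahl10-1 and 1 for rrp6l1-2 in DESeq2. The cause was not tested. The 54 to 164 reads a library limit the precision for UGT71B6, and the spread of CYP707A3 between control libraries limits that gene.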

Other observations

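UGT71B6, which was called nowhere, shared with CYP707A3 the order of its control libraries in part. Replicate 2 was the lowest control library of UGT71B6 in every genotype, at 0.580 RPKM in ahl10-1, 0.530 RPKM in rrp6l1-2 and 0.849 RPKM in WT. Replicate 2 was also the lowest control library of CYP707A3 in every genotype, at 1.56, 2.12 and 2.38 RPKM. This order was noticed after the values were seen and was not tested.

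PDF1, the gene nearest to BGLU33 in pattern, had 126, 161 and 173 RPKM in ahl10-1 stress libraries, against 175, 108 and 105 RPKM in ahl10-1 control libraries, and ahl10-1 control replicate 1 stood above the other control libraries of that genotype in BGLU33 as well, at 46.4 RPKM. In rrp6l1-2 control replicate 3, the lowest library of BGLU33, PDF1 was also lowest, at 82.6 RPKM.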
